A study of Mus musculus with 8 samples.

Results

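The 46 genes described here encode subunits of the receptors for glutamate, GABA and glycine, and they were taken from 21830 genes measured by RNA sequencing in the developing mouse retina. They were chosen by gene symbol: 4 AMPA (Gria), 5 kainate (Grik) and 7 NMDA (Grin) receptor subunits, the delta receptor subunit Grid1, 6 metabotropic glutamate receptors (Grm2 to Grm5, Grm7 and Grm8), 13 GABA-A receptor subunits, 3 GABA rho subunits (Gabrr), 2 GABA-B receptor subunits (Gabbr) and 5 glycine receptor subunits. The RNA came from slc:ICR mice, and the 8 libraries, 1 for each condition, were whole retina at E15 and E18 and 2 sorted fractions at P2, P5, and P8. Retinas were pooled and dissociated with trypsin, and cells were sorted by surface Cd73, which is present on rod precursors and mature rods. Cd73PC are the Cd73-positive cells, and Cd73NC are the remaining cells of the retina. With a single library per condition there was no replicate error, so a difference at 1 stage or between ages is a difference between libraries and was not tested. Both fractions of a stage came from the same retinas, and the difference between fractions was tested over the 3 stages together. A gene was counted as higher or lower when the FPKM + 1 of the libraries differed by more than 1.5-fold. FPKM is scaled to transcript length and library size, so levels of different genes can be set side by side.

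Glutamate is the transmitter that photoreceptors and bipolar cells release, whereas GABA and glycine are released mainly by amacrine cells and, in the case of GABA, by horizontal cells. AMPA, kainate, NMDA, GABA-A, GABA rho and glycine receptors are ion channels assembled from several subunits, and metabotropic glutamate receptors and GABA-B receptors signal through G proteins. In the mature retina GABA rho receptors are known above all from the axon terminals of rod bipolar cells. Kainate and AMPA receptors are found on the dendrites of OFF bipolar cells, though not only there.

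The identity of the fractions was checked against markers. The 6 rod markers summed to FPKM 3178, 6949 and 11517 in the Cd73PC libraries of P2, P5 and P8, and to 50.4, 798 and 756 in the Cd73NC libraries, which is 1.59%, 11.5% and 6.57% of the Cd73PC sums. All 8 bipolar cell markers were higher in Cd73NC at P8 than at P2, and their sum went from 21.1 to 971. Ganglion and amacrine cell markers were low in the sorted cells at P8. Ganglion cell markers summed to 954 at E15, 596 at E18, 19.9 in P2 Cd73NC and 3.67 in P8 Cd73NC, and Pou4f3 was at 0 in the P5 and P8 libraries. The sum of the 4 amacrine cell markers that could be looked up (of 7 listed) was 305 at E18, 235 in P2 Cd73NC and 28.4 in P8 Cd73NC. Pax6 alone was at 176, 190 and 27.7 in these libraries. Calb2 and Ptf1a were at 18.8 and 26.0 in P2 Cd73NC and at 0.607 and 0.134 in P8 Cd73NC. Chat, which makes acetylcholine in starburst amacrine cells, was at 0 in every sorted library except P2 Cd73NC. The P8 Cd73NC library therefore carried bipolar cell transcripts, and rod transcripts (756), with few amacrine or ganglion cell transcripts. The 6 Müller glia markers summed to 1224 there. Their sums were also 625 at E15, 729 at E18 and 1090 in P2 Cd73NC, so this sum alone does not set glia apart from earlier cells. Of the horizontal cell markers (sum of 5, 20.2 in P2 and 167 in P8 Cd73NC), Prox1 alone was at 165.8 in P8 Cd73NC. Cone markers (sum of 6) were 57.9 and 129 in Cd73NC and Cd73PC at P2 and 121 and 147 at P8. Microglial markers (sum of 4) were 4.29 in Cd73NC and 25.5 in Cd73PC at P2 but 90.5 and 70.6 at P8. At P2 the astrocyte marker sum was also higher in Cd73PC (2.503 against 21.6). The bipolar marker sum was 21.1 against 54.1, with Otop3 alone at 6.07 and 35.7. At that stage 3 of the 8 bipolar markers were higher in Cd73PC, and Isl1 went the other way (4.79 against 0.776). Red blood cell markers (sum of 3) were 5170 in P8 Cd73NC and 2075 in P8 Cd73PC. Progenitor markers (sum of 6) were 1573 in Cd73NC at P2 and 86.2 at P8. In bulk libraries, fewer cells of a type and less RNA per cell cannot be told apart.

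The 3 GABA rho genes were scarce at P2 (summed level 0.344 FPKM for Cd73NC, 0.726 for Cd73PC) and were all higher at P8 than at P2 in both fractions, and Grik3 had the highest level of the kainate subunits in Cd73PC at all stages. The 250 bases before the start sites of these 4 genes are shown because these rho genes share that course while Grik3 does not. They are RefSeq sequences on build GRCm38.p6, which is not the build of the expression files, and are written in lower case 5′ to 3′. Capitals mark TAATCC or its reverse complement GGATTA, the core of the site bound by Crx and related homeodomain factors of photoreceptors and bipolar cells.
Gabrr1, chr4:33132306-33132555, plus strand: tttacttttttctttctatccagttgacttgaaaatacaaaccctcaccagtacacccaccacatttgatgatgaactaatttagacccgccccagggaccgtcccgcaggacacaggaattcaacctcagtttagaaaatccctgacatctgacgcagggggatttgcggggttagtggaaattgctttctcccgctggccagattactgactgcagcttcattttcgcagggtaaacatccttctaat
Gabrr2, chr4:33062862-33063111, plus strand: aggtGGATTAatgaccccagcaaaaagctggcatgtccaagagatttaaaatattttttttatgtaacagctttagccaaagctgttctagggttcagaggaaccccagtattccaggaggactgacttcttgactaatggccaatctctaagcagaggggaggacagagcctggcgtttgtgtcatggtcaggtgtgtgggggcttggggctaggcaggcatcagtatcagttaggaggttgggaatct
Gabrr3, chr16:59407132-59407381, plus strand: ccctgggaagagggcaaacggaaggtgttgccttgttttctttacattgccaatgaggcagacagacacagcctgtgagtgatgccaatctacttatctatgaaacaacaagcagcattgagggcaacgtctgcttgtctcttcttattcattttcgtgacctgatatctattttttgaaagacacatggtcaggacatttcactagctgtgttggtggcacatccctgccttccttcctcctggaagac
Grik3, chr4:125490446-125490695, plus strand: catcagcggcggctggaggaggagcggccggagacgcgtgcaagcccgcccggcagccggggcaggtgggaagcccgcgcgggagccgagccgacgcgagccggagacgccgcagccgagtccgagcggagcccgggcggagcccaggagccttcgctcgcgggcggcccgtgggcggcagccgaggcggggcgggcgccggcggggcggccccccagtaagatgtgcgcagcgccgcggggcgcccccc
Only the Gabrr2 window held the TAATCC letters, on the minus strand, with its first base 246 bases before the start site. GC content was 46% for Gabrr1 and Gabrr3 and 47.6% for Gabrr2, whereas it was 82% for Grik3. The table held 42 start sites for 35 of the 46 genes. TAATCC was present on either strand in 2 of the 42 windows (4.76%, Gabra2 and Gabrr2) and in 6.25% of 32851 windows of the same length over all genes. TGCTGA, the core of the site bound by Nrl and other Maf factors, was present on either strand in 12 of the 42 windows (28.6%) and in 16.1% of all windows. The genes were Gabbr2, Gabra5, Gabra6, Gabrb2, Gabrp, Gabrq, Glra2, Grin3b, Grm2, Grm3 and Grm7, and windows of the same gene were counted separately. They include Gabra6, at 0 in all libraries, and Glra2, which was higher in Cd73NC at P2, P5 and P8. A link of this motif with expression was not tested. Neither motif contains the other. These are matches of letters, not binding sites. Genes with no entry in the table were Gabrd, Glra1, Gria1, Gria3, Grid1, Grik1, Grin2a, Grin2b, Grin3a, Grm4 and Grm5.

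Of the 46 subunit genes, 18 reached an FPKM of 5 in at least 1 library, 15 had their highest FPKM between 1 and 5, and 13 stayed below 1 in all 8 libraries. P8 Cd73NC was the library with the highest level for 16 genes, and E15 or E18 whole retina, which was not sorted, for 25. Those 25 include genes that stayed below 1 in all libraries, such as Gabrp (at most 0.0223) and Glra4 (at most 0.0567). Grik3 and Grm7 were highest in Cd73PC, and Glra2 and Gria3 were highest in P2 Cd73NC. The summed FPKM of the 46 genes was 142 at E15 and 175 at E18. It was 119, 158 and 493 in Cd73NC and 91.6, 94.3 and 130.3 in Cd73PC at P2, P5 and P8. In P8 Cd73NC, Gabrr1 alone made up 34.5% of this sum, and Gabrr1, Gabbr1, Grik1 and Grik5 together 66.5%. Gabbr1, Gabbr2, Glrb, Gria4, Grik3, Grik5 and Grm7, 7 genes, were at FPKM 1 or more in every library.

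By class, kainate sums were 29.6, 65.5 and 93.7 in Cd73NC at P2, P5 and P8 and stayed between 40.1 and 41.2 in Cd73PC. The 6 metabotropic glutamate receptors summed to 11.9, 7.87 and 12.4 in Cd73NC and to 8.64, 13.0 and 16.3 in Cd73PC, and were the class with the higher sum in Cd73PC at both P5 and P8. NMDA sums were at most 8.71, at E18.

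**Figure D1:**
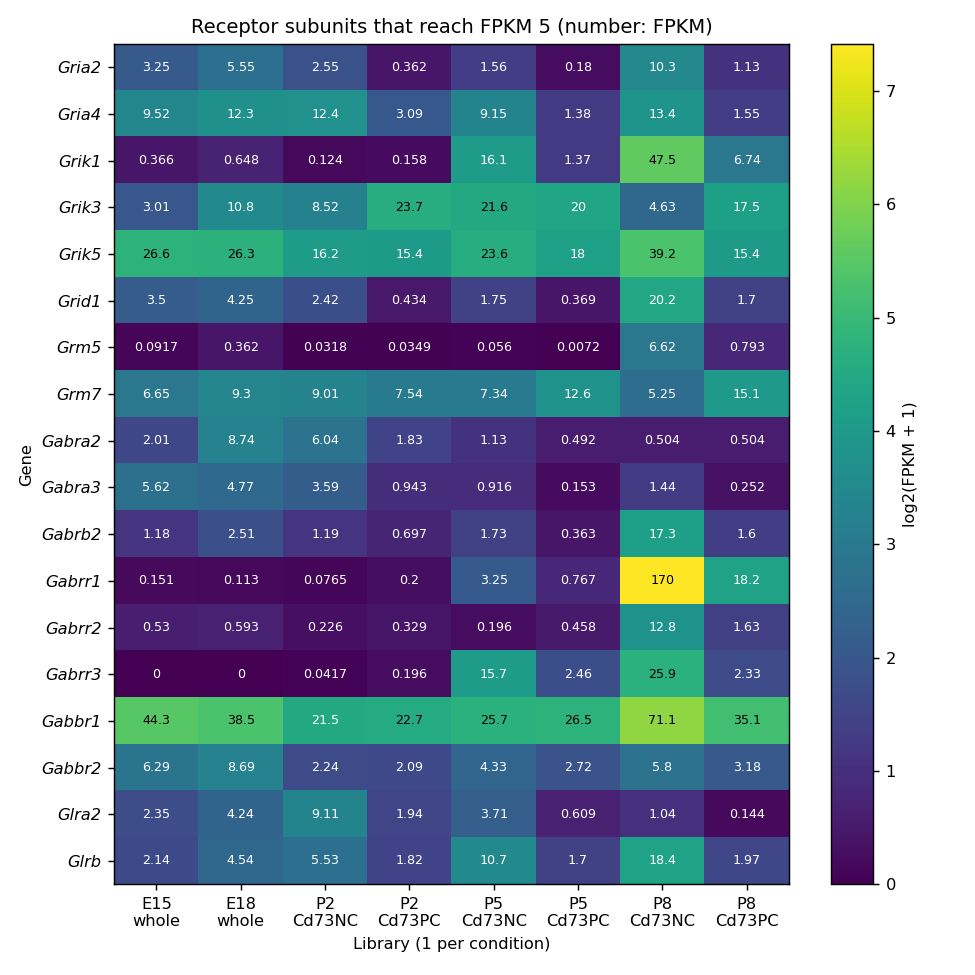
FPKM of the 18 subunit genes that reached 5 in at least 1 library (rows, by receptor class) in the 8 libraries (columns), with log2(FPKM + 1) as colour. The brightest cells are Gabrr1 and Gabbr1 in P8 Cd73NC, while Grik3 and Grm7 are brighter in Cd73PC than in Cd73NC at P8.

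The comparison of fractions asks which receptor transcripts separate rods from the other retinal cells. At P2, 13 of 46 genes were higher in Cd73NC, against 14.4% of all genes, and 2 were higher in Cd73PC, against 8.57%. At P5, 13 were higher in Cd73NC (15.6% of all genes) and 1 in Cd73PC (7.02%). At P8, 23 were higher in Cd73NC (18.6% of all genes) and 3 in Cd73PC (7.54%). The share of subunit genes higher in Cd73NC was thus 28.3% at P2 and P5 and 50% at P8. Many subunits were near 0 and could not pass the threshold. Among genes that reached FPKM 1 in one fraction or the other, 13 of 20 subunits at P2, 12 of 18 at P5 and 21 of 23 at P8 were higher in Cd73NC, where the shares of all such genes were 25%, 27% and 31.3%. In the same set 1, 1 and 2 subunits were higher in Cd73PC (14.5%, 12.3% and 13% of all such genes). The median log2 ratio of Cd73PC over Cd73NC in this set took the values -0.73, -1.01 and -1.73 at the successive stages, beside -0.14, -0.18 and -0.23 over all genes. The set higher in Cd73NC at all 3 stages had 9 genes, against 7.83% of all genes, namely Gria2, Gria4, Grik2, Grik4, Grin1, Grid1, Gabra3, Glra2 and Glrb. Under quantile normalization it had 6, since Grik4 fell within 1.5-fold at P2, Grin1 at P5 and Grik2 at P8. No subunit was higher in Cd73PC at all 3 stages, against 3.51% of all genes. Without P5 these counts were 10 (9.03% of all genes), with Gria1 added, and 1 (4.28%), which was Grik3.

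The difference between fractions over the 3 stages was tested with limma on log2(FPKM + 1) of the 6 sorted libraries, with stage as block. This leaves 2 residual degrees of freedom and counts a change of the difference with age as error. Of the 21 subunits with a mean FPKM of at least 1, 9 were higher in Cd73NC at an adjusted p under 0.05, against 20% of 12127 genes, and 0 were higher in Cd73PC, against 9.38%. At an unadjusted p under 0.05 these counts were 12 and 1, against 30% and 13.9% of the genes tested. The AMPA subunit gene Gria4 had a log2 ratio of Cd73PC over Cd73NC of -2.10 ± 0.20 (SE, limma adjusted p = 0.00408), and Gria2 one of -1.64 ± 0.31 (limma adjusted p = 0.0174). Among glycine receptor genes the ratio was -2.01 ± 0.31 for Glrb (limma adjusted p = 0.01004) and -1.39 ± 0.26 for Glra2 (limma adjusted p = 0.0165). Gria1, Grin1, Grid1, Grik2 and Gabra3 passed with limma adjusted p from 0.0299 to 0.0475. Of the 21, Grik3 had the largest ratio towards Cd73PC, 0.995 ± 0.37, and did not pass (limma adjusted p = 0.0974). No subunit passed when P5 was left out (lowest limma adjusted p, 0.0585). Few genes of any kind passed there, 0.775% towards Cd73NC and 1.42% towards Cd73PC. Under quantile normalization 5 subunits passed towards Cd73NC, against 13.1% of the genes tested.

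**Figure D2:**
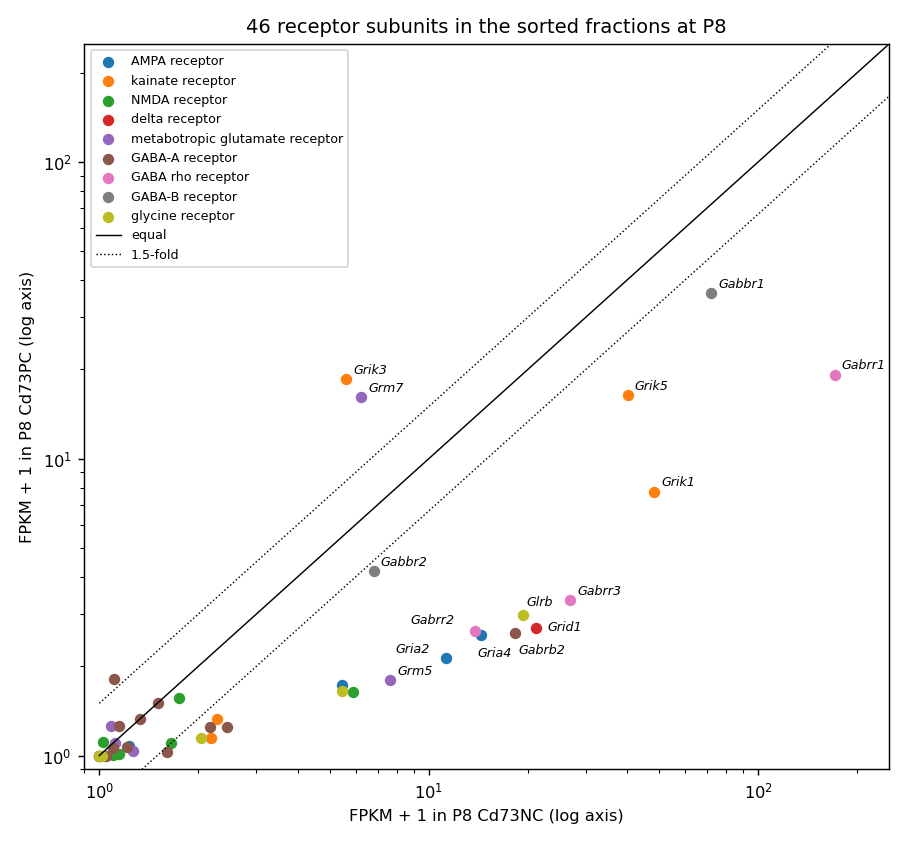
FPKM + 1 of the 46 subunit genes in P8 Cd73NC (x axis, log scale) and P8 Cd73PC (y axis, log scale), 1 point per gene, coloured by receptor class. Points below the lower dotted line were more than 1.5-fold higher in Cd73NC, and Grik3 and Grm7 lie above the upper dotted line.

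Summed AMPA receptor transcripts were lower in Cd73PC than in Cd73NC at every stage. Gria4, the predominant AMPA subunit gene in these libraries (chr9:4417893-4796234, NCBI37/mm9, as are all gene positions below), had an FPKM of 9.52 at E15 and 12.3 at E18, of 12.4, 9.15 and 13.4 in Cd73NC and of 3.09, 1.38 and 1.55 in Cd73PC at P2, P5 and P8. Gria2, whose edited subunit makes AMPA receptors impermeable to calcium (chr3:80488858-80606713), was at 3.25 and 5.55 in the embryonic retina, at 2.55, 1.56 and 10.3 in Cd73NC and at 0.362, 0.180 and 1.13 in Cd73PC. The Cd73NC level of Gria4 thus stayed within a narrow range, while that of Gria2 was highest at P8. Log2 ratios of Cd73PC over Cd73NC at P2, P5 and P8 were -1.71, -2.09 and -2.50 for Gria4 and -1.38, -1.12 and -2.41 for Gria2. Gria1 reached 4.47 in P8 Cd73NC, and was higher in Cd73NC at P2 and P8. Gria3 reached 1.36 in P2 Cd73NC and was higher there than in P2 Cd73PC. All 4 AMPA subunits were thus past the threshold at P2. Summed AMPA FPKM in Cd73NC was 20.3, 11.2 and 28.4, and in Cd73PC it was 4.87, 1.70 and 3.47. Gria2 made up 12.6%, 13.9% and 36.2% of that sum in Cd73NC and 7.43%, 10.6% and 32.4% in Cd73PC, and 20.9% and 23.9% at E15 and E18.

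The kainate receptor genes had unlike patterns. Grik1, which encodes the GluK1 subunit used by OFF bipolar cells (chr16:87896142-88290503), was at 0.366 and 0.648 at E15 and E18, at 0.124, 16.1 and 47.5 in Cd73NC and at 0.158, 1.37 and 6.74 in Cd73PC at P2, P5 and P8. It was close to 0 in both fractions at P2 and higher in Cd73NC afterwards, with a log2 ratio of Cd73PC over Cd73NC of -2.85 at P5 and -2.65 at P8. Grik3, which encodes the low-affinity GluK3 subunit (chr4:125168075-125391417), was at 3.01 and 10.8 in the embryonic retina, at 8.52, 21.6 and 4.63 in Cd73NC and at 23.7, 20.0 and 17.5 in Cd73PC. It was higher in Cd73PC at P2 (log2 ratio 1.37) and P8 (1.72), and the fractions were within 1.5-fold at P5 (-0.11). The Cd73NC value at P5 stood apart from those at P2 and P8, and rod markers were also at their highest percentage in that Cd73NC library (11.5% of Cd73PC). The part of this in the Grik3 value was not tested. Grik5, an auxiliary high-affinity subunit (chr7:25794870-25857388), was at 26.6 and 26.3 in the embryo, at 16.2, 23.6 and 39.2 in Cd73NC and at 15.4, 18.0 and 15.4 in Cd73PC. It was the most abundant kainate subunit in both embryonic libraries and was past the threshold between fractions at P8 (log2 ratio -1.30). Grik2 and Grik4 were highest at E15 (4.43 and 2.42) and were higher in Cd73NC at all 3 stages. Of the summed kainate FPKM, Grik1 made up 0.419% in P2 Cd73NC and 50.6% in P8 Cd73NC, whereas Grik3 made up 57.5% in P2 Cd73PC, 43.7% in P8 Cd73PC and 4.93% in P8 Cd73NC.

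NMDA receptor transcripts were scarce. Grin1, the obligatory subunit, reached 4.90 in P8 Cd73NC and was higher in Cd73NC at all 3 stages, with log2 ratios of -0.78, -0.72 and -1.85. Grin2c reached 1.53 at E15 and Grin3a 1.43 at E18. Grin2a, Grin2b, Grin2d and Grin3b stayed below 1 in every library, and Grin2a was listed at 0 in P2 Cd73PC and in all P5 and P8 libraries. The sum of Grin2a to Grin2d was at most 2.07, at E15, so the make-up of the Grin2 subunits could not be followed at P8. The delta receptor gene Grid1 was higher in Cd73NC at all 3 stages. Grid1 (chr14:35633322-36394301), which encodes a postsynaptic adhesion receptor, was at 3.50 and 4.25 at E15 and E18, at 2.42, 1.75 and 20.2 in Cd73NC and at 0.434, 0.369 and 1.70 in Cd73PC, and its Cd73NC value at P8 stood above all others. Its log2 ratios between fractions were -1.25, -1.01 and -2.98.

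Among the metabotropic glutamate receptors, Grm7 and Grm5 had opposite patterns. Grm7, a presynaptic group III receptor (chr6:110595592-111517224), was at 6.65 and 9.30 at E15 and E18, at 9.01, 7.34 and 5.25 in Cd73NC and at 7.54, 12.6 and 15.1 in Cd73PC at P2, P5 and P8. The fractions were within 1.5-fold at P2 (log2 ratio -0.23), and Cd73PC was higher at P5 (0.71) and P8 (1.37). Grm5, a group I receptor (chr7:94732678-95283573), was at 0.0917 and 0.362 in the embryo, at 0.0318, 0.0560 and 6.62 in Cd73NC and at 0.0349, 0.00720 and 0.793 in Cd73PC. It was thus detected above FPKM 1 only in P8 Cd73NC among these libraries. Grm2, Grm3, Grm4 and Grm8 were highest in the embryonic retina, with FPKM of 2.57 (E18), 1.46 (E15), 1.06 (E15) and 1.37 (E18).

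Among the GABA-A receptor genes, Gabra2 and Gabra3 were early transcripts. Gabra2 (chr5:71352296-71487088), an alpha subunit known from immature neurons, was at 2.01 and 8.74 at E15 and E18, at 6.04, 1.13 and 0.504 in Cd73NC and at 1.83, 0.492 and 0.504 in Cd73PC. Gabra3 (chrX:69678015-69901585), another early alpha subunit, was at 5.62 and 4.77, at 3.59, 0.916 and 1.44 in Cd73NC and at 0.943, 0.153 and 0.252 in Cd73PC. Both were lower at P8 than at P2 in each fraction, with log2 ratios of -2.23 (Cd73NC) and -0.91 (Cd73PC) for Gabra2 and of -0.91 and -0.63 for Gabra3. Between the fractions Gabra2 was higher in Cd73NC at P2 (log2 ratio of Cd73PC over Cd73NC, -1.31), and Gabra3 was higher there at P2, P5 and P8 (-1.24, -0.73 and -0.96). In the P2 and P8 Cd73NC libraries the amacrine marker sum was 235 and 28.4 (Pax6 alone, 190 and 27.7) and the bipolar marker sum 21.1 and 971. How much the cell types present contributed to the levels of Gabra2 and Gabra3 was not tested. Gabra5 reached 1.23 at E18 and was higher in Cd73PC at P2 (0.829 against 0.0423). The microglial and astrocyte marker sums were higher in P2 Cd73PC too, and the bipolar sum was so mainly through Otop3. Their part in the Gabra5 value was not tested.

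Gabrb2 (chr11:42233259-42446093), a beta subunit of mature GABA-A receptors, was at 1.18 and 2.51 at E15 and E18, at 1.19, 1.73 and 17.3 in Cd73NC and at 0.697, 0.363 and 1.60 in Cd73PC. It was within 1.5-fold at P2 (log2 ratio -0.37) and higher in Cd73NC at P5 (-1.003) and P8 (-2.81). Gabrg3 reached 1.54 and Gabrd 1.30, in E15 and E18. Gabrd, the delta subunit of extrasynaptic receptors, was higher in Cd73PC at P8 at a low level (0.809 against 0.105). Gabra4, Gabra6, Gabrb1, Gabre, Gabrg1, Gabrp and Gabrq stayed below 1 in all libraries, and Gabra6, known from cerebellar granule cells, was at 0 in all of them.

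The summed FPKM of the GABA rho genes was 0.344, 19.2 and 208.6 in Cd73NC at the successive stages. Gabrr1 (chr4:33219531-33250563) was at 0.151 and 0.113 at E15 and E18, at 0.0765, 3.25 and 169.9 in Cd73NC and at 0.200, 0.767 and 18.2 in Cd73PC. Gabrr2 (chr4:33150087-33182840) was at 0.530 and 0.593, at 0.226, 0.196 and 12.8 in Cd73NC and at 0.329, 0.458 and 1.63 in Cd73PC. Gabrr3 (chr16:59407208-59461565) was at 0 in both embryonic libraries, at 0.0417, 15.7 and 25.9 in Cd73NC and at 0.196, 2.46 and 2.33 in Cd73PC. The order of the genes differed between stages, since Gabrr3 was the highest of them in P5 Cd73NC and Gabrr1 in P8 Cd73NC, where it made up 81.4% of the sum. The level of Gabrr1 in P8 Cd73NC lay above its own bounds of 151.7 to 160.5, and that of Gabrr3 above its bounds of 21.0 to 25.5, so these 2 estimates are less firm than the rest. At P8 the log2 ratios of Cd73PC over Cd73NC were -3.16, -2.40 and -3.01 for Gabrr1, Gabrr2 and Gabrr3.

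The GABA-B receptor is a dimer of both Gabbr products. Gabbr1 (chr17:37182911-37211250), which binds GABA, was at 44.3 and 38.5 at E15 and E18, at 21.5, 25.7 and 71.1 in Cd73NC and at 22.7, 26.5 and 35.1 in Cd73PC. Gabbr2 (chr4:46676770-47004586), which couples to the G protein, was at 6.29 and 8.69, at 2.24, 4.33 and 5.80 in Cd73NC and at 2.09, 2.72 and 3.18 in Cd73PC. Both were within 1.5-fold between the fractions at P2 and P5 and higher in Cd73NC at P8 (log2 ratios -0.998 and -0.70), although the call of Gabbr2 was lost under upper-quartile and quantile scaling. At P5, Gabbr2 was past 1.5-fold in Cd73NC with a pseudocount of 0.1 or none. Gabbr1 was the subunit gene with the highest level in P8 Cd73PC, with 26.9% of the sum over the 46 genes.

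Among the glycine receptor genes, Glrb (chr3:80647526-80717546), the beta subunit that anchors the receptor at synapses, was at 2.14 and 4.54 at E15 and E18, at 5.53, 10.7 and 18.4 in Cd73NC and at 1.82, 1.70 and 1.97 in Cd73PC. Glra2 (chrX:161566949-161764913), an alpha subunit known from immature neurons, was at 2.35 and 4.24, at 9.11, 3.71 and 1.04 in Cd73NC and at 1.94, 0.609 and 0.144 in Cd73PC. Both were higher in Cd73NC at all 3 stages, but their Cd73NC levels went in opposite directions. The log2 ratios between fractions were -1.21, -2.11 and -2.71 for Glrb and -1.78, -1.55 and -0.83 for Glra2. Glra1, the alpha subunit of mature receptors, was at 0 in both P2 libraries and reached 4.46 in P8 Cd73NC and 0.650 in P8 Cd73PC. Of the summed glycine alpha FPKM, Glra2 made up 96.9% in P2 Cd73NC and 18.8% in P8 Cd73NC, and Glra1 made up 80.9% in P8 Cd73NC and 81.9% in P8 Cd73PC. Between P2 and P8 Cd73NC the amacrine marker sum went from 235 to 28.4 and the ganglion cell marker sum from 19.9 to 3.67. How much the cell types present contributed to these shares was not tested. Glra3 and Glra4 stayed below 1, and Glra3, which is known from amacrine cells, was at 0 in both P8 libraries.

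**Figure D3:**
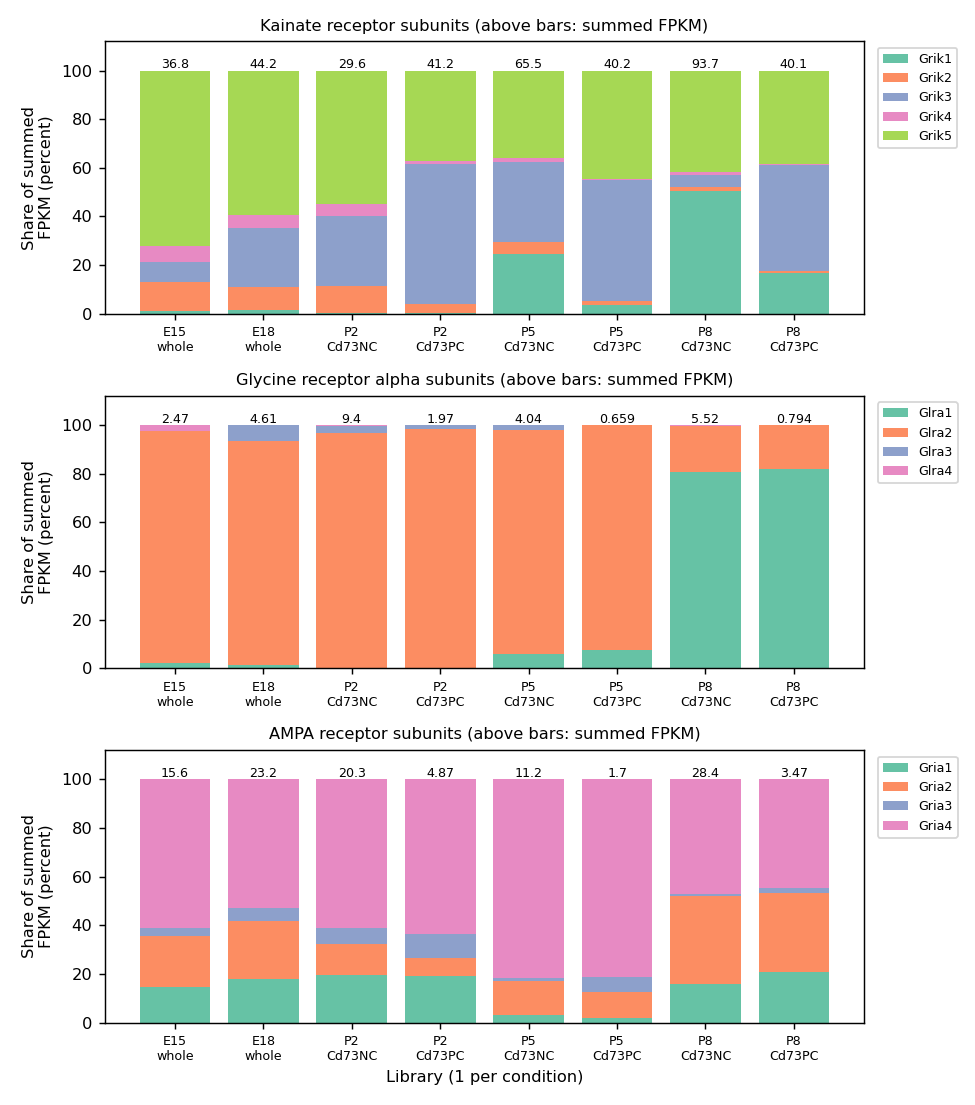
Share of each subunit in the summed FPKM of its group (y axis, percent) for the kainate, glycine alpha and AMPA genes in the 8 libraries (x axis), with the summed FPKM above each bar. Grik1 takes 50.6% of the kainate sum and Glra1 80.9% of the glycine alpha sum in P8 Cd73NC, where at P2 they took 0.419% and 0%.

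The second question of the design is how expression moved with age. Between E15 and E18, 11 of 46 genes were higher at E18 (Gria1, Gria2, Grik3, Grin1, Grin3a, Gabra2, Gabra5, Gabrb2, Gabrd, Glra2 and Glrb), against 4.61% of all genes (7.59% of those at FPKM 1 or more), and 0 were lower, against 2.1%. Under quantile normalization 5 were higher and 1, Grin2c, was lower. Between the same libraries the ganglion cell marker sum went from 954 to 596 and the amacrine cell marker sum from 239 to 305. Within these lists markers went both ways. The ganglion cell markers Thy1 (2.28 to 29.2) and Pou4f3 (6.21 to 11.7) were higher at E18. Of the amacrine cell markers, Calb2 went from 26.6 to 115.6, while Pax6 went from 197 to 176 and Ptf1a from 16.1 to 13.1. Among the 11 subunit genes, the largest log2 ratios of E18 over E15 for those that reached FPKM 5 were 1.70 for Gabra2 and 1.56 for Grik3. In Cd73NC, 16 genes were higher at P8 than at P2 (13.5% of all genes) and 10 were lower (14.3%). At FPKM 1 or more these were 14 (21.6% of such genes) and 9 (24%) of 27 subunit genes. The 10 lower genes were Gabra2, Gabra3, Gabrd, Glra2, Gria3, Grik2, Grik3, Grm2, Grm7 and Grm8. In Cd73PC, 11 were higher at P8 (6.41% of all genes) and 5 were lower (14.7%), the latter being Gabra2, Gabra3, Glra2, Gria4 and Grik2. The call of Gria4 was lost under upper-quartile and quantile scaling. The higher sets of the fractions shared 10 genes, which is 10 of 16 in Cd73NC and 10 of 11 in Cd73PC, namely Gabbr1, Gabrb2, Gabrr1, Gabrr2, Gabrr3, Glra1, Gria2, Grid1, Grik1 and Grm5. Over all genes the shared set (4.19% of genes) was 31% of the Cd73NC list and 65.5% of the Cd73PC list, where for the subunits it was 62.5% and 90.9%. Grm7 was the gene higher at P8 in Cd73PC but not in Cd73NC. The log2 ratios of P8 over P2 in Cd73NC were 7.31 for Gabrr1, 5.43 for Grik1, 4.69 for Gabrr3 and 3.50 for Gabrr2. In Cd73PC the same genes had ratios of 3.998, 2.74, 1.48 and 0.98.

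**Figure D4:**
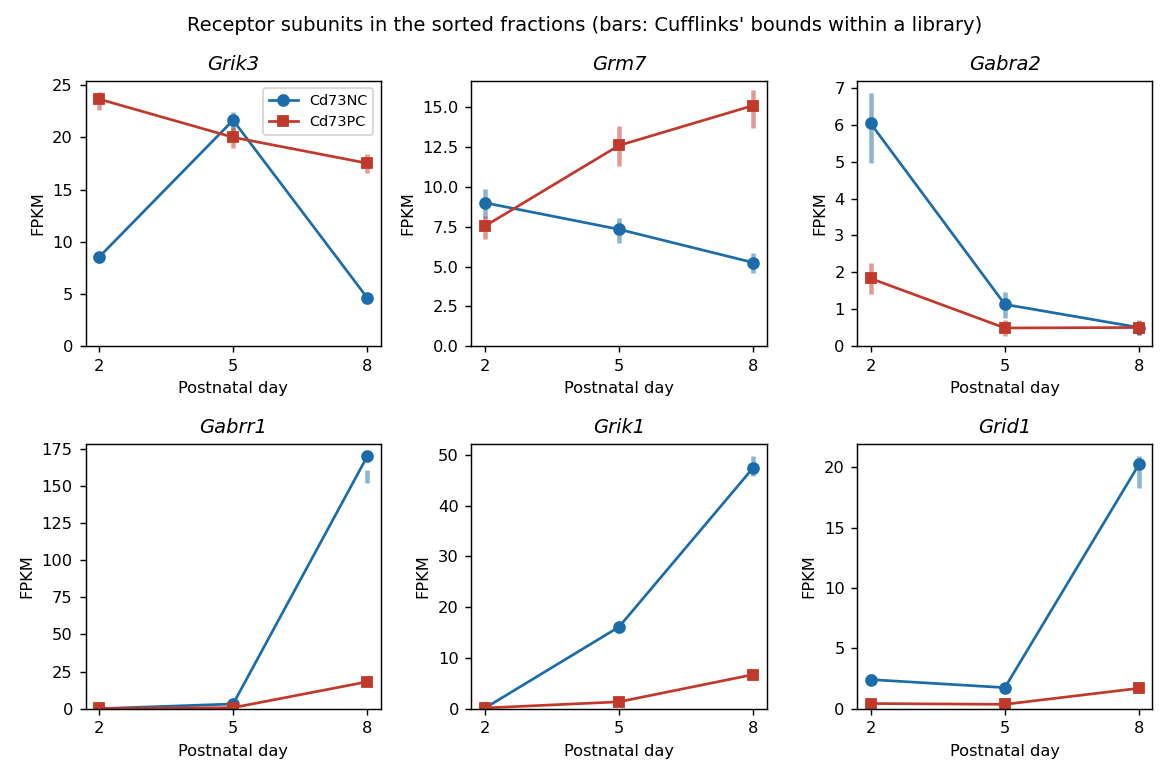
FPKM (y axis) of Grik3, Grm7, Gabra2, Gabrr1, Grik1 and Grid1 at P2, P5 and P8 (x axis) in Cd73NC (circles) and Cd73PC (squares), 1 library per point, with Cufflinks' bounds within each library as vertical bars. Grik3 and Grm7 are higher in Cd73PC at P8, and Gabrr1, Grik1 and Grid1 are highest in P8 Cd73NC.

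The subunits higher in Cd73NC at P8 were set beside the bipolar markers in the same libraries. For the 21 such genes with an FPKM of at least 1, the Cd73PC level was 8.40% to 54.7% of the Cd73NC level, with a median of 13.0%. For the 7 of 8 bipolar markers that were higher in Cd73NC at P8 it was 7.70% to 28.7%, with 7.70% for Vsx1, 10.1% for Isl1, 11.5% for Bhlhe23 and 12.5% for Cabp5. Otop3, the remaining marker, was higher in Cd73PC. Of the 21 genes, 18 lay within the range of these markers, with 10.7% for Gabrr1, 14.2% for Grik1 and 8.40% for Grid1. Gabbr1, Gabbr2 and Grik5 lay above it. The upper end of the marker range, 28.7%, was Prkca alone. Genes and markers were both chosen as higher in Cd73NC at P8, so their overlap was partly fixed by that choice and is not a test. Müller glial markers at P8 had a Cd73PC level of 12.6% to 33.2% of Cd73NC. Whether the Cd73PC levels of the 18 genes belong to Cd73-positive cells was not tested.

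Neighbouring genes on a chromosome did not always share a level. Within 1 Mb of another subunit gene lay 15 of the 46 genes, in 6 groups. On chromosome 11 Gabra6 and Gabrb2 lie 98.7 kb apart, and in P8 Cd73NC they were at 0 and 17.3. On chromosome 5 Gabrg1, Gabra2, Gabra4 and Gabrb1 were at 0.0480, 0.504, 0.213 and 0.609 in the same library. On chromosome 7 Gabrg3 was at 1.16 and Gabra5 at 0.333. The pair Gabrr2 and Gabrr1, 36.7 kb apart on chromosome 4, and the pair Gria2 and Glrb, 40.8 kb apart on chromosome 3, were all higher in P8 than in P2 Cd73NC.

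**Figure D5:**
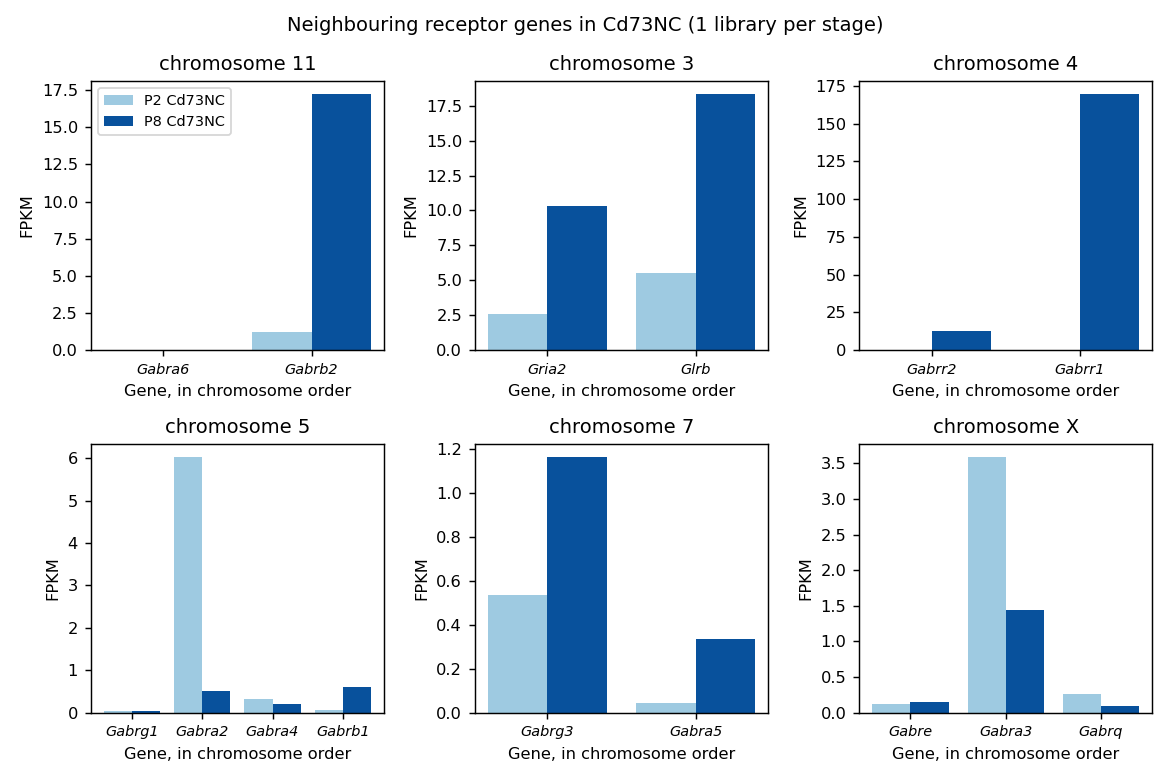
FPKM (y axis, linear from 0, scale differs between panels) in P2 Cd73NC (light) and P8 Cd73NC (dark) of subunit genes within 1 Mb of each other, in chromosome order (x axis). On chromosome 11 the bar of Gabrb2 is high at P8 and Gabra6 is at 0.

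Genes that act with these receptors were taken from lists of auxiliary subunits, scaffolds, transmitter synthesis and transport, and chloride transporters, and 65 of these genes were found. Of these, 29, 29 and 39 were higher in Cd73NC at P2, P5 and P8, and 7, 6 and 6 were higher in Cd73PC, where the shares of all genes were 14.4%, 15.6% and 18.6% for Cd73NC and 8.57%, 7.02% and 7.54% for Cd73PC. Among the 20 AMPA and kainate auxiliary genes, 12, 13 and 13 were higher in Cd73NC and 0 in Cd73PC at any stage, against the same shares of all genes. In Cd73PC, 3 transporter genes were more than 2-fold higher at all 3 stages. Slc17a7, which loads glutamate into synaptic vesicles, was at 72.7, 238.6 and 504.6 in Cd73PC and at 4.49, 43.6 and 173.5 in Cd73NC. The plasma membrane glutamate transporters Slc1a1 (26.1 to 28.2 in Cd73PC against 4.22 to 5.06 in Cd73NC) and Slc1a7 (50.2 to 87.5 against 5.47 to 39.6) had the same direction. In Cd73NC, 9 partner genes were more than 2-fold higher at all 3 stages (the share of all genes was not computed for either fraction). The 8 with the lowest mean log2 ratio of Cd73PC over Cd73NC were the GABA transporter Slc6a11 (-2.30), the glial glutamate transporter Slc1a3 (-2.20), Abat, which degrades GABA (-2.11), Sorcs2 (-1.98), the AMPA auxiliary genes Cacng4 (-1.89) and Cnih2 (-1.70), the kainate auxiliary gene Neto2 (-1.56) and the scaffold gene Dlgap3 (-1.51).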

How the data were processed

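RNA sequencing was analysed in 8 libraries, 1 for each condition. The authors aligned single-end reads to NCBI37/mm9 with TopHat2 2.0.8b, estimated expression with Cufflinks 2.1.1 and deposited, for each library, the FPKM of 23021 rows with its lower and upper bound, both in FPKM (CASAVA 1.8.2 and bcl2fastq 1.8.4 are also named in the submitters' processing notes). Read counts were not used here, and absolute depth is unknown. From the steps of rows below FPKM 0.3, depth relative to E18 ranged from 0.965 (E15) to 1.62 (P2 Cd73PC). Rows of small RNAs (794) were left out, rows sharing a symbol were summed, and 4 to 10 failed rows per library were taken as missing. The symbol rule matched 51 genes, of which 46 are reported here; results on the others, and on 1 partner gene, are not reported here and enter no count, sum or figure of members. None of the 46 failed, and all 46 overlapped their annotated locus on NCBIM37.

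Ratios were taken on FPKM + 1, and calls were made past 1.5-fold. The members and lists were chosen with earlier results of these data known. Values in all libraries are given for genes that reach FPKM 5, and ratios for those past 1.5-fold at all 3 stages or turning direction, with others beside them. Genes below 5 are given by their highest value and its library, and genes below 1 are counted and named. For partner genes, at most 8 per direction past 2-fold at all 3 stages are named, by mean log2 ratio. Genes named outside these rules were chosen after their values were seen. The alternatives were a pseudocount of 0.1 or none, a 2-fold threshold, upper-quartile scaling, quantile normalization, a filter at FPKM 1, non-overlapping bounds, failed rows at 0, and the largest row of a symbol in place of the sum. Added after the data were examined, limma (trend, Benjamini-Hochberg over all genes tested) was fitted to log2(FPKM + 1) of the 6 sorted libraries with terms for fraction and stage, since the study's methods take both fractions of a stage from the same retinas. The scripts were tested on simulated data. R 4.3.3, limma 3.58.1, Python 3.11.15, numpy 2.4.6, pandas 2.3.3 and matplotlib 3.10.9 were used.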

Additional observations from a re-analysis of the deposited data

Results flagged for a closer look

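Grm7 moved in opposite directions with age in the 2 fractions, with a P8 over P2 log2 ratio of -0.68 in Cd73NC and 0.92 in Cd73PC. With 1 library per condition this difference between fractions was not tested.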

How the results depend on the processing

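Each condition had 1 library, so no replicate could be left out. The fractions pair by stage, since they came from the same retinas. In the limma fit with this pairing as block, 9 subunits were higher in Cd73NC and 0 in Cd73PC. Upper-quartile scaling gave the same 9. In Cd73NC, quantile normalization gave 5, no filter on low values 5, no block 2 and leaving out P5 0. The shares of all genes tested were then 13.1%, 8.11%, 5.41% and 0.775%. Without P8, 6 were higher in Cd73NC (15.1% of genes). Without P2, 10 were higher in Cd73NC (18.6%) and 1, Grm7, in Cd73PC (8.55%). No call turned direction under any alternative, but ratios within 1.5-fold could change sign, as for Grik3 at P5 (0.042 under upper-quartile scaling) and Gabra2 at P8 (0.066, and 0.41 under quantile normalization). With a pseudocount of 0.1, the genes higher in Cd73PC and Cd73NC numbered 5 and 23 at P2 and 5 and 22 at P5, 5 were higher in Cd73PC at P8, the P8 median log2 ratio was -1.08, 19 genes were higher and 2 lower at E18 than at E15, and 12 were lower at P8 than at P2 in Cd73PC. With no pseudocount these were 5 and 25 at P2, 5 and 26 at P5, 6 at P8, 18 and 1 at E18, and 16 lower at P8 in each fraction. The medians were then -0.94, -1.47 and -2.62 at P2, P5 and P8, and 15 genes were higher in Cd73NC at all 3 stages. At 2-fold, 1 was higher in Cd73PC and 8 in Cd73NC at P2, 0 in Cd73PC at P5, 14 in Cd73NC at P8, 3 at E18, 2 lower at P8 in Cd73NC, 3 higher and 1 lower at P8 in Cd73PC, and 4 higher in Cd73NC at all 3 stages. Upper-quartile scaling gave 1 gene lower at E18. Quantile normalization gave 2 higher in Cd73PC at P5 and, at E18, 5 higher and 1 lower, so that 83.3% rather than 100% of those calls were higher. With the filter at FPKM 1, 1 gene was higher in Cd73PC at P2, and medians were -0.73, -1.01 and -1.73 at P2, P5 and P8. Without P5, 1 gene was higher in Cd73PC at the remaining stages. Scaling moved the median log2 ratio of all genes between fractions by 0.07 to 0.18 (upper quartile) and 0.11 to 0.27 (quantile), and that of P8 over P2 in Cd73PC by 0.15 and 0.20. At P8, Gabbr2 and Grin3a then fell within 1.5-fold under both, and Gabrb1, Gabrg3 and Grik2 under quantile normalization. Shares of subunits and calls with non-overlapping bounds were as in the report. Many subunits lie below FPKM 1, where a ratio depends on the pseudocount and the number of reads behind it is unknown.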

Other observations

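The genes in this paragraph were chosen after their values were seen, from the lists of transmitter synthesis, transport and chloride transporters. Gad1 and Gad2, which make GABA, and Slc32a1, which loads GABA and glycine into vesicles, had FPKM of 5.47, 11.9 and 16.0 in P2 Cd73NC and of 0.217, 1.54 and 1.21 in P8 Cd73NC. Transcripts of the presynaptic GABA pathway were thus low in the library in which GABA rho transcripts were highest. Slc12a5, which lowers intracellular chloride, was at 4.07, 5.15 and 57.6 in Cd73NC and at 4.03, 9.77 and 30.3 in Cd73PC at P2, P5 and P8. Slc12a2, which raises it, was at 8.91, 8.61 and 7.72 in Cd73NC and at 6.95, 5.97 and 7.62 in Cd73PC. Slc6a9, a glycine transporter, was at 6.56, 40.7 and 10.4 in Cd73NC and at 47.9, 72.3 and 50.7 in Cd73PC, so that, as for Grik3, the Cd73NC value was highest at P5.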
